A study of Mus musculus with 22 samples.

Results

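The comparison described here sets the adult ovary at postnatal day 60 (P60) against the ovary at postnatal day 21 (P21), before the first ovulation, with puberty lying between the 2 ages. It uses 4 of the 22 libraries of the study, 2 at P60 and 2 at P21, chosen by the age given in their labels. The study took total RNA of whole ovaries from wild-type CD1 mice, an outbred stock, at 11 ages between embryonic day 13 and 2 years, with 2 libraries for each age. P60 and P21 mice shared strain, genotype and tissue and differed by age, and no treatment is named. The labels give neither the stage of the estrous cycle nor whether a library came from 1 animal or a pool, so at P60 cycle stage and age cannot be told apart, and the p-values rest on a spread between libraries that may be purely technical. Expression is given as FPKM, the fragments assigned to a gene per kilobase of transcript, scaled to a fixed number of mapped fragments. A gene was tested when it reached 1 FPKM in at least 2 of the 22 libraries, which 16117 of 34745 genes did.

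At puberty, pulses of luteinizing hormone and follicle-stimulating hormone from the pituitary begin to drive follicles to ovulation. The granulosa and theca cells of an ovulated follicle then become the corpus luteum, which takes up cholesterol and turns it into progesterone until prostaglandins bring about its regression. Ovulation and luteal regression draw in leukocytes and remodel the collagen matrix, which makes the cycling ovary a site of repeated tissue injury and repair.

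The P60 libraries held an estimated 16680000 and 18150000 reads, and the P21 libraries 16760000 and 14910000, as read from the spacing of low FPKM values. A gene with 2 kb of transcript and a level of 1 FPKM was thus seen in 33.4 and 36.3 reads at P60, and in 33.5 and 29.8 reads at P21. The replicates of both ages resembled each other closely, with Pearson r across genes of 0.9911 at P60 and 0.9908 at P21. The 2-year replicates stood apart from one another, with an r of 0.9396. Because 1 spread per gene was estimated from all ages, luteal genes that differed between the 2-year replicates had a wide error at P60 as well. The tissue label held in all 4 libraries: Inha, the inhibin alpha chain of granulosa cells, had 1465 and 1715 FPKM at P60, against 2201 and 2253 FPKM at P21, and Zp3, an oocyte coat protein, had 33.03 and 38.8 FPKM at P60, against 36.4 and 42.5 FPKM at P21.

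Between P21 and P60 the ovary gained transcripts of the corpus luteum, of antigen-presenting cells and macrophages, of chemokines and of collagens, and lost transcripts of the cell cycle and of granulosa cells. For the collagens Col1a1, Col3a1 and Col12a1 the gain followed a fall between postnatal day 14 and P21. Of the 16117 genes tested, 1098 (6.81%) were higher and 1080 (6.70%) were lower at P60, 2178 (13.5%) in all, by limma on log2(FPKM + 1) with Benjamini-Hochberg adjustment at 0.05. These shares are the background beside which each gene group below is given. The lists were chosen with earlier results of these data known, so their shares are descriptive and were not tested against this background. By at least 1 on the log2 scale, 394 genes (2.44%) were higher and 161 (0.999%) lower, so the wide changes lay more often on the higher side. Both P60 libraries lay above both P21 libraries for 29.2% of all genes tested and under both for 35.3%. Ages without overlap were thus common. Each difference below is P60 minus P21 on the log2(FPKM + 1) scale with its standard error, and the added 1 shrinks the difference of genes at low FPKM. Leaving out any 1 of the 4 libraries left 654 to 694 genes higher and 509 to 585 lower. A fit to the 4 libraries alone kept 1736 of the 2178 calls, so it took calls away as well as adding others. In whole tissue, more cells of a type and more RNA per cell cannot be told apart, which holds for every group below.

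**Figure D1:**
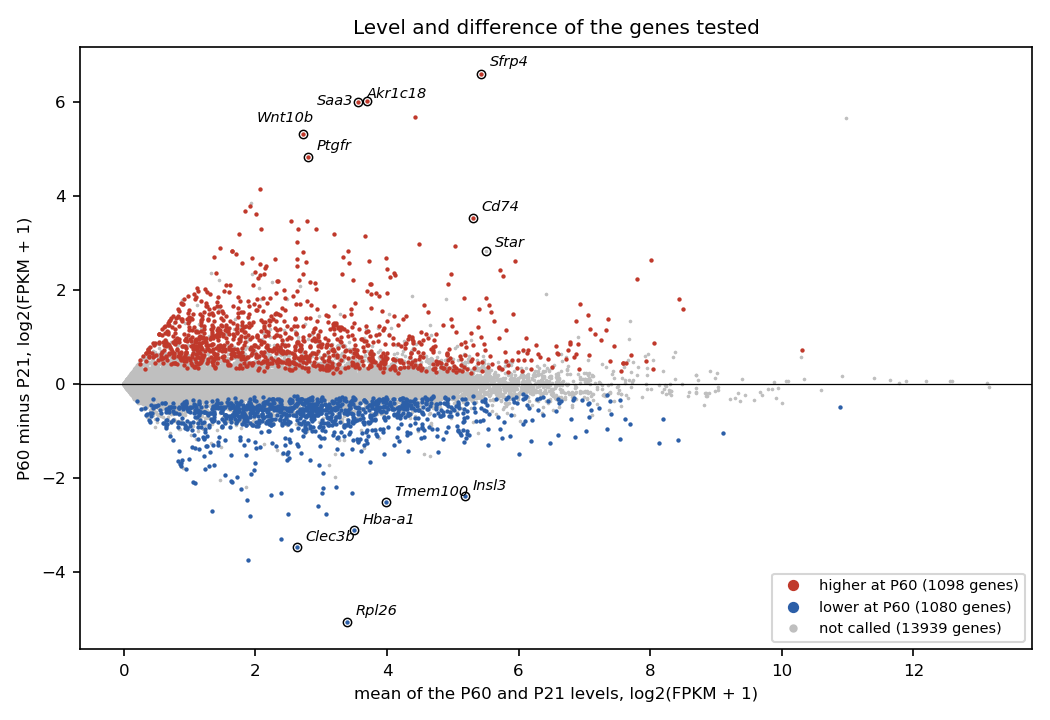
The difference of each tested gene, P60 minus P21, against the mean of its P60 and P21 levels, both on the log2(FPKM + 1) scale, with 1 point per gene. Red points are the 1098 genes called higher at P60, blue points the 1080 called lower, and gray points the rest. Sfrp4, Saa3, Akr1c18, Wnt10b and Ptgfr stand at the top, Rpl26 at the bottom, and Star is a gray point despite a difference of 2.82. The gray point at the upper right is mt-Nd4l, a mitochondrial gene that was near 0 in 1 of the P21 libraries.

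Receptors of gonadotropins, prolactin and prostaglandin F2 alpha rose. Of 14 tested receptors, 4 rose and 1 fell, with a median difference of 0.19, against a median of -0.02 over all genes tested. Ptgfr (chr3:151796502-151837630), the receptor of prostaglandin F2 alpha on luteal cells and the trigger of luteal regression, had 40.2 and 32.8 FPKM at P60, against 0.254 and 0.342 FPKM at P21. Both P60 libraries lay far above both P21 libraries, which were at the level of a few reads per kilobase. The difference was 4.84 ± 1.30 (limma, adjusted p = 0.0221). Lhcgr (chr17:88716481-88791990), the receptor of luteinizing hormone, had 137 and 166 FPKM at P60, against 25.4 and 22.5 FPKM at P21, a difference of 2.61 ± 0.73 (adjusted p = 0.0271). Prlr, the prolactin receptor that maintains the rodent corpus luteum, had 30.2 and 32.2 FPKM at P60, against 11.3 and 10.2 FPKM at P21 (1.45 ± 0.45, adjusted p = 0.0473). For both genes the P60 libraries lay above both P21 libraries, as for 29.2% of all genes tested. Fshr, the granulosa cell receptor of follicle-stimulating hormone, rose less, to 24.1 and 25.5 FPKM at P60, against 13.8 and 12.9 FPKM at P21 (0.85 ± 0.11, adjusted p = 0.000119). Esr2, the estrogen receptor beta of granulosa cells, was the member that fell, to 22.2 and 25.2 FPKM at P60, against 54.9 and 53.3 FPKM at P21 (-1.16 ± 0.13, adjusted p = 3.7e-05). Without any 1 of the 4 libraries the calls of Ptgfr, Lhcgr and Prlr were lost (adjusted p = 0.0952 to 0.204), and 1 receptor remained called higher.

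Luteal genes had the highest median difference of the gene lists, 1.46 over 18 tested members, and 8 of them rose. Sfrp4 (chr13:19623104-19632994), a secreted WNT antagonist of luteal cells in rodents, had the widest difference among called genes, leaving out clone, pseudogene and identifier names. It had 466 and 383 FPKM at P60, against 3.697 and 3.096 FPKM at P21, a difference of 6.59 ± 1.47 (limma, adjusted p = 0.00737). Akr1c18 (chr13:4132615-4150654), the enzyme that inactivates progesterone and marks regressing corpora lutea in rodents, had 103 and 84.5 FPKM at P60, against 0.496 and 0.457 FPKM at P21 (6.0 ± 1.14, adjusted p = 0.00247). In both genes P60 library 1 was the higher, and the P21 libraries lay far under both. Timp1, an inhibitor of matrix metalloproteases made in corpora lutea, rose to 75.3 and 64.5 FPKM at P60, against 11.6 and 14.6 FPKM at P21 (2.34 ± 0.34, adjusted p = 0.000297). Runx2, a transcription factor induced in luteinizing granulosa cells, had 3.91 and 3.56 FPKM at P60, against 0.0701 and 0.277 FPKM at P21 (2.02 ± 0.63, adjusted p = 0.0468). The receptors Ptgfr, Lhcgr and Prlr and the enzyme Cyp11a1, given with their own groups, made up the rest of the 8. The luteal count was 2 or 3 members without any 1 of the 4 libraries. Sfrp4 lost its call without P60 library 1 or P21 library 2 (adjusted p up to 0.0548), and Runx2 without each of the 4 (adjusted p = 0.147 to 0.197).

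Star (chr8:25806555-25815982), which carries cholesterol to the inner mitochondrial membrane and sets the pace of steroid synthesis, had 117 and 123 FPKM at P60, against 15.8 and 16.6 FPKM at P21. The ages did not overlap and the difference was 2.82 ± 0.91, but Star did not pass the test (limma, adjusted p = 0.0546). Its adjusted p was 0.00713 when the 4 libraries were fitted alone and 3.65e-07 without the 2-year libraries. Those 2-year libraries had 123 and 3275 FPKM of Star, 2.97 and 219 FPKM of Akr1c18 and 0.432 and 164 FPKM of Ptgfr, so the luteal genes were high in 1 and low in the other. Hsd17b7, a 17-beta-hydroxysteroid dehydrogenase of luteal cells, stood in the same position, with 24.9 and 27.6 FPKM at P60, against 9.06 and 8.45 FPKM at P21 (adjusted p = 0.611, 0.00901 in the 4 libraries alone and 4.16e-05 without the 2-year libraries). Scarb1, the receptor that takes up cholesterol from high-density lipoprotein, had 42.7 and 40.9 FPKM at P60, against 24.1 and 23.9 FPKM at P21 (adjusted p = 0.55, 0.00889 in the 4 libraries alone and 0.00161 without the 2-year libraries). The luteal list had 14 members higher and 2 lower in the fit to the 4 libraries alone, and 13 higher and 1 lower without the 2-year libraries.

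**Figure D2:**
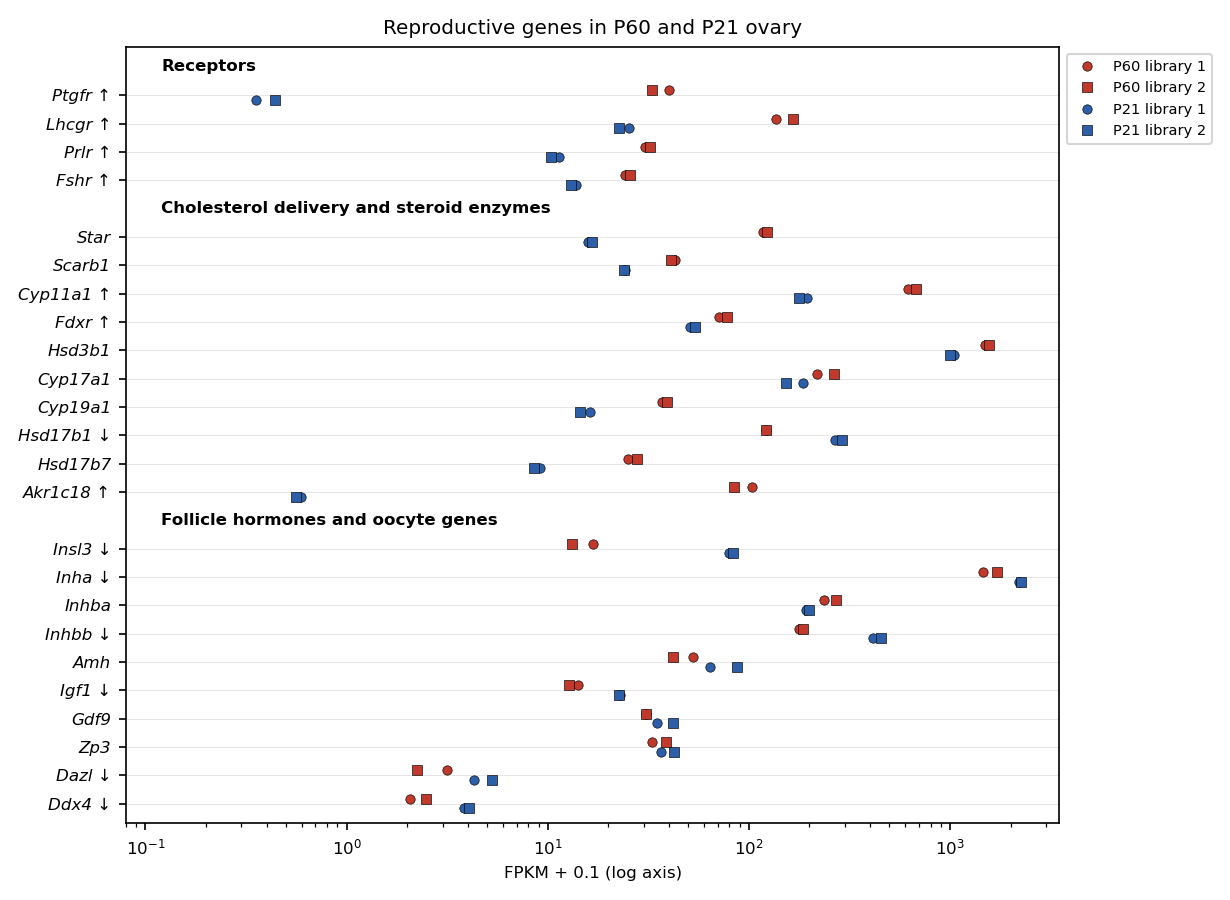
FPKM + 0.1 on a log axis for 24 reproductive genes in each P60 library (red) and each P21 library (blue), circles for library 1 and squares for library 2. Arrows after a gene name mark a call, upward for higher and downward for lower at P60. The P60 points of Ptgfr, Akr1c18 and Star lie well to the right of the P21 points, whereas those of Insl3, Inhbb and Hsd17b1 lie to the left.

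Among steroid genes, Cyp11a1 and Fdxr of the first step and the progesterone-inactivating Akr1c18 rose, whereas Hsd17b1 and Srd5a1 of later steps fell. Of 18 tested steroid genes 3 rose and 2 fell, with a median of 0.42. Cyp11a1, which cleaves the cholesterol side chain to pregnenolone, rose to 621 and 678 FPKM at P60, against 193 and 178 FPKM at P21 (1.80 ± 0.46, limma, adjusted p = 0.0162). Fdxr, the reductase that feeds electrons to it, rose to 70.9 and 77.97 FPKM at P60, against 50.9 and 53.7 FPKM at P21 (0.50 ± 0.11, adjusted p = 0.0063). Akr1c18, described above, was the third, and it kept its call without any 1 library. Hsd3b1, which turns pregnenolone into progesterone, was among the most abundant transcripts at both ages, with 1493 and 1561 FPKM at P60, against 1044 and 1003 FPKM at P21. It ranked 4 at P60 and 7 at P21 by mean FPKM among genes not encoded by mitochondria, and its difference of 0.58 ± 0.39 did not pass (adjusted p = 0.404, 0.0305 in the 4 libraries alone). The call of Cyp11a1 was lost without any 1 of the 4 libraries (adjusted p = 0.0711 to 0.101), and the count of members higher was then 1 or 2. It was 8, with 4 lower, in the 4 libraries alone, and 6, with 3 lower, without the 2-year libraries.

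Among the later enzymes, Hsd17b1, which reduces estrone to estradiol in granulosa cells, fell to 122 and 122 FPKM at P60, against 267 and 290.4 FPKM at P21 (-1.18 ± 0.22, limma, adjusted p = 0.00216). Srd5a1, a reductase that converts progesterone and testosterone to their dihydro forms, fell to 7.51 and 7.24 FPKM at P60, against 19.5 and 18.7 FPKM at P21 (-1.26 ± 0.23, adjusted p = 0.00177). For both genes the P60 libraries lay under both P21 libraries, as for 35.3% of all genes tested. Cyp19a1, the aromatase of granulosa cells, had 36.8 and 39.1 FPKM at P60, against 16.2 and 14.4 FPKM at P21, but did not pass (adjusted p = 0.206, 0.00969 in the 4 libraries alone). Cyp17a1, the theca enzyme that makes androgens, had 217 and 264 FPKM at P60, against 186 and 153 FPKM at P21, and did not pass either (adjusted p = 0.202).

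The promoters of the 3 steroid genes called higher are shown, although their differences were of unequal size. They come from the RefSeq promoter table for GRCm38.p6 and run from 250 bases before to 50 after a start, 5′ to 3′ on the gene's strand. Capitals mark matches on either strand to AAGGTCA, a core of the NR5A1 site, to TGACGT, most of a cyclic AMP response element, to TGATAA, which GATA factors bind, or to AGGTCA, a shorter form of the first that was added after the sequences were read.
Akr1c18, chr13:4150597-4150896, minus strand: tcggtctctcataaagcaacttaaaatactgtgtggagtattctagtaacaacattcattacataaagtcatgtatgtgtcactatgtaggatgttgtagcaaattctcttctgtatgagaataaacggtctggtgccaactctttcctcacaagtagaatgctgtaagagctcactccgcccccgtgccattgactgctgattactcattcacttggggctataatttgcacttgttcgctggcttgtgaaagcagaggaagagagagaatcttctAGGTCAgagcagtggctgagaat
Cyp11a1, chr9:58014702-58015001, plus strand: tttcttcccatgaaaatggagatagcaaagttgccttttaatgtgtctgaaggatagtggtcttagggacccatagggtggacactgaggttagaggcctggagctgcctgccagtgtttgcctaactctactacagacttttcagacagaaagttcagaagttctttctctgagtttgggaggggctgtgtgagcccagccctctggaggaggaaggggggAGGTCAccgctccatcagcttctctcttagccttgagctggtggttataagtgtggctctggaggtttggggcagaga
Fdxr, chr11:115276920-115277219, minus strand: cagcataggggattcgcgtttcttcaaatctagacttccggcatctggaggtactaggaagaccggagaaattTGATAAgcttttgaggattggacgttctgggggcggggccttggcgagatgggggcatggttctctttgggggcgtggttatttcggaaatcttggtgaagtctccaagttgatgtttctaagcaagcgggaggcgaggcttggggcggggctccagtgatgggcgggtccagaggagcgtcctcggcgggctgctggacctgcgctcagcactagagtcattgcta
The Akr1c18 window held AGGTCA at 28 bases after the start, the Cyp11a1 window held it 28 bases before the start, and the Fdxr window held TGATAA 177 bases before the start. The longer AAGGTCA and TGACGT were in none of these windows, and a second Cyp11a1 window at chr9:57997774-57998073 held no match. Among all 32851 promoters in the table, 4.72% held AAGGTCA, 7.51% TGACGT, 9.05% TGATAA and 16.3% AGGTCA. A match is only these letters in this window, and neither Cyp11a1 window covers the start of that gene in the GENCODE annotation, at position 58006411.

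Of 17 tested genes of cholesterol uptake, storage and export 5 rose, with a median of 0.24. Abcg1, which exports cholesterol to high-density lipoprotein, rose to 9.99 and 13.6 FPKM at P60, against 2.51 and 2.92 FPKM at P21 (1.77 ± 0.14, limma, adjusted p = 1.97e-06). Plin2, a coat protein of lipid droplets, rose to 31.2 and 27.9 FPKM at P60, against 11.1 and 10.3 FPKM at P21 (1.38 ± 0.23, adjusted p = 0.000757). Lipa, the lysosomal lipase that frees cholesterol from its esters, rose to 43.8 and 51.95 FPKM at P60, against 22.1 and 20.96 FPKM at P21 (1.11 ± 0.13, adjusted p = 5.9e-05). All 3 had both P60 libraries above both P21 libraries, as had 29.2% of all genes tested. Apoe, the lipoprotein of macrophages and steroid cells, had 155 and 295 FPKM at P60, against 86.8 and 67.1 FPKM at P21, and the P60 libraries differed widely from each other. Its call was lost without P60 library 2 or P21 library 2 (adjusted p up to 0.0852). Npc2, which hands cholesterol out of the lysosome, was the other member called (0.69 ± 0.20, adjusted p = 0.0315), and lost its call without each of the 4 libraries (adjusted p = 0.115 to 0.155). The count of members higher was 3 without P60 library 2 or P21 library 2. None of the 20 genes of cholesterol synthesis passed, and none had an unadjusted limma p under 0.05, although 5 were higher and 1 lower in the fit to the 4 libraries alone, and 6 higher and 4 lower without the 2-year libraries.

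The transcription factors that direct steroidogenic cells moved little, with 1 of 15 tested members higher, 2 lower and a median of -0.17. Nr5a1, the master regulator of steroidogenic genes, had 51.4 and 58.4 FPKM at P60, against 55.2 and 56.03 FPKM at P21, and Nr5a2, its relative needed for luteal function, had 60.8 and 62.8 FPKM at P60, against 81.9 and 78.8 FPKM at P21. Neither passed (limma, adjusted p = 0.985 and 0.689). Foxo1, a granulosa cell factor that represses steroid genes and is lost on luteinization, fell to 52.7 and 58.6 FPKM at P60, against 93.5 and 96.7 FPKM at P21 (-0.76 ± 0.11, adjusted p = 0.00025). Gata6 fell to 25.2 and 26.04 FPKM at P60, against 36.4 and 38.7 FPKM at P21 (-0.53 ± 0.12, adjusted p = 0.00624), a call that was lost without P60 library 1 or P21 library 2 (adjusted p up to 0.0652). Runx2, given with the luteal genes, was the member that rose, and without any 1 of the 4 libraries no member was called higher.

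WNT pathway genes rose beside Sfrp4. Of 14 tested ligands and secreted antagonists, 3 rose, with a median of 0.37. Wnt4, the ligand that is needed for ovarian development and for luteal function, rose to 43.8 and 38.5 FPKM at P60, against 11.2 and 13.1 FPKM at P21 (1.68 ± 0.14, limma, adjusted p = 3.39e-06). Sfrp1 rose to 60.8 and 58.5 FPKM at P60, against 30.4 and 28.5 FPKM at P21 (0.99 ± 0.08, adjusted p = 3.39e-06). At P14 Sfrp1 had 64.6 and 68.2 FPKM, above both P60 libraries, whereas Wnt4 had 26.4 and 21.7 FPKM, under both. Wnt10b (chr15:98770712-98778150), a ligand outside that list, was among the 10 widest increases, with 44.8 and 36.8 FPKM at P60, against 0.0582 and 0.0219 FPKM at P21 (5.32 ± 0.69, adjusted p = 0.000123). The P21 values of Wnt10b lay near the detection limit. All 3 genes had both P60 libraries above both P21 libraries, as had 29.2% of all genes tested, and the rule that named Wnt10b required it.

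Granulosa cell genes were lower on balance at P60, with 6 of 20 tested members lower, 1 higher and a median of -0.39. Ihh, the hedgehog ligand that granulosa cells send to the theca, fell to 11.3 and 11.1 FPKM at P60, against 31.2 and 32.5 FPKM at P21 (-1.43 ± 0.15, limma, adjusted p = 1.72e-05). Inhbb, the beta B chain of inhibin and activin, fell to 177 and 186 FPKM at P60, against 412 and 456 FPKM at P21 (-1.25 ± 0.29, adjusted p = 0.00962). Inha fell by less (-0.49 ± 0.12, adjusted p = 0.0154). The other beta chain, Inhba, had 237 and 272 FPKM at P60, against 193 and 200.1 FPKM at P21, with all P60 values above the P21 values, and did not pass (adjusted p = 0.619). Amh, the anti-Müllerian hormone of small growing follicles, had 52.8 and 42.03 FPKM at P60, against 63.9 and 87.5 FPKM at P21 and missed the threshold as well (adjusted p = 0.0902). The calls of Inhbb and Inha were each lost without 3 of the 4 libraries, Inhbb without all but P21 library 1 and Inha without all but P60 library 2 (adjusted p up to 0.0785 and 0.161). The count of members lower was then 3 or 4. It was 9 in the 4 libraries alone and 12 without the 2-year libraries.

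In the wider TGF beta, activin and BMP pathway 7 of 20 tested members fell and 2 rose, with a median of -0.31. Bmpr1b, the granulosa cell receptor of bone morphogenetic proteins, fell to 16.1 and 16.3 FPKM at P60, against 30.6 and 29.3 FPKM at P21 (-0.85 ± 0.08, limma, adjusted p = 5.06e-06). Smad6, an inhibitory mediator that such signals induce, fell to 3.25 and 2.71 FPKM at P60, against 6.25 and 5.901 FPKM at P21 (-0.83 ± 0.14, adjusted p = 0.000803). Inha and Inhbb were also among the members that fell. Tgfb1, the ligand of wound repair, and Fstl1, a follistatin-like protein of stromal cells, were the members that rose (0.78 ± 0.19, adjusted p = 0.0128, and 0.68 ± 0.10, adjusted p = 0.000347). Tgfb1 lost its call without all but P21 library 1 (adjusted p up to 0.115), and the count of members lower was 4 without P21 library 2.

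Theca cells gave 4 of 11 tested members lower and 1 higher, with a median of -0.22. Insl3 (chr8:71689214-71690575), the peptide hormone of theca cells, had 16.7 and 13.2 FPKM at P60, against 79.8 and 83.5 FPKM at P21, a difference of -2.39 ± 0.26 (limma, adjusted p = 2.65e-05). Of the 31-base words of its transcripts, 63.1% also occur in transcripts of other genes, so its level depends on how shared reads were assigned. Hhip, a hedgehog-binding target gene, fell to 2.73 and 2.78 FPKM at P60, against 7.86 and 7.87 FPKM at P21 (-1.24 ± 0.20, adjusted p = 0.00068). Ptch1, the hedgehog receptor and itself a target, fell with it (-0.71 ± 0.16, adjusted p = 0.00809), as did its ligand Dhh in the granulosa list (-0.66 ± 0.17, adjusted p = 0.0179). Ptch1 lost its call without P60 library 1 or P21 library 1 and Dhh without all but P60 library 1 (adjusted p up to 0.0969 and 0.155). The member that rose was Lhcgr, which theca cells share with luteal cells. The count of theca members lower was 2 or 3 without any 1 library.

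Of 27 tested oocyte genes 3 (11.1%) fell, a share near the 6.70% of all genes, and the median was -0.32. The count was 0 or 1 without any 1 of the 4 libraries, and 4 members had an unadjusted limma p under 0.05. Kit, the receptor on oocytes for the granulosa cell signal KITL, fell to 4.07 and 4.64 FPKM at P60, against 11.1 and 10.8 FPKM at P21 (-1.16 ± 0.29, limma, adjusted p = 0.0163). Dazl, an RNA-binding protein of germ cells, fell to 3.04 and 2.13 FPKM at P60, against 4.21 and 5.202 FPKM at P21 (-0.68 ± 0.17, adjusted p = 0.014). Ddx4, a germ cell RNA helicase, fell to 1.96 and 2.37 FPKM at P60, against 3.74 and 3.98 FPKM at P21 (-0.62 ± 0.15, adjusted p = 0.0136). All 3 genes are high in the oocytes of small follicles. Gdf9, the oocyte growth factor, had 30.6 and 30.8 FPKM at P60, against 34.99 and 41.9 FPKM at P21 and did not pass (adjusted p = 0.69). The 3 calls were fragile: Kit lost its call without each of the 4 libraries (adjusted p = 0.0637 to 0.106), Ddx4 without all but P60 library 2 and Dazl without P60 library 2 or P21 library 2 (adjusted p up to 0.124 and 0.171).

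Some genes of the ovulatory surge were scarce at both ages, while the summed level of the 15 ovulation and cumulus genes was 93.6 and 86.8 FPKM at P60, against 93.2 and 92.2 FPKM at P21. Ptgs2, the prostaglandin synthase of the surge, had 0.934 and 0.574 FPKM at P60, against 0.0634 and 0.0572 FPKM at P21, and Pgr, the progesterone receptor that ovulation needs, had 0.458 and 0.498 FPKM at P60, against 0.611 and 0.475 FPKM at P21. Both stayed under the filter and were not tested. Of the 9 ovulation and cumulus genes tested, 1 rose and 1 fell, with a median of 0.13. Cd44, a hyaluronan receptor of cumulus cells and leukocytes, rose to 6.204 and 5.12 FPKM at P60, against 1.87 and 1.93 FPKM at P21 (1.20 ± 0.12, limma, adjusted p = 1.5e-05). Ptx3, which stabilizes the cumulus matrix, fell to 1.73 and 1.64 FPKM at P60, against 2.59 and 3.16 FPKM at P21 (-0.52 ± 0.14, adjusted p = 0.0211), a call that was kept only without P21 library 1. Of 10 tested genes of prostaglandin metabolism 1 rose and 1 fell, with a median that rounds to 0. Ptgds, the prostaglandin D2 synthase, had 7.21 and 7.198 FPKM at P60, against 1.19 and 1.39 FPKM at P21 (1.84 ± 0.41, adjusted p = 0.00714), and lost its call without P21 library 1 (adjusted p = 0.0546). Ptges, the synthase of prostaglandin E2, fell to 29.9 and 29.1 FPKM at P60, against 43.8 and 44.4 FPKM at P21 (-0.57 ± 0.14, adjusted p = 0.0147), and lost its call without each of the 4 libraries (adjusted p = 0.0688 to 0.0916).

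Cell cycle genes fell as a group: 19 of 27 tested members were lower at P60, 1 was higher, and the median was -0.70. Both P60 libraries lay under both P21 libraries for 26 of the 27, against 35.3% of all genes tested. The summed level of the list was 275 and 246 FPKM at P60, against 412 and 445 FPKM at P21. Kif11, a spindle motor, fell to 7.86 and 5.79 FPKM at P60, against 15.6 and 17.5 FPKM at P21 (-1.17 ± 0.17, limma, adjusted p = 0.00029). Bub1b, a spindle checkpoint kinase, fell to 11.1 and 8.45 FPKM at P60, against 19.1 and 20.1 FPKM at P21 (-0.95 ± 0.14, adjusted p = 0.000415). Ccnd2, the cyclin that follicle-stimulating hormone induces in granulosa cells, fell to 21.5 and 20.4 FPKM at P60, against 33.1 and 35.6 FPKM at P21 (-0.69 ± 0.13, adjusted p = 0.00301). Cdkn1a, an inhibitor of cyclin-dependent kinases, was the member that rose, to 9.41 and 9.53 FPKM at P60, against 4.55 and 4.37 FPKM at P21 (0.94 ± 0.16, adjusted p = 0.00122). Mki67, a marker of cycling cells, had 19.7 and 16.6 FPKM at P60, against 32.4 and 33.7 FPKM at P21, but did not pass (adjusted p = 0.144, 0.0239 in the 4 libraries alone). The count of members lower was 12 without P60 library 2.

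Set beside the neighbouring ages, Akr1c18, Star and Sfrp4 at P60 were between P21 and 1 year. Akr1c18 had 3.83 and 7.78 FPKM at postnatal day 14 (P14) and 5686 and 3849 FPKM at 1 year. Star had 31.9 and 47.8 FPKM at P14 and 2563 and 1914 FPKM at 1 year, and Sfrp4 had 2.56 and 4.62 FPKM at P14 and 1907 and 2927 FPKM at 1 year. For all 3 the 1-year libraries exceeded both P60 libraries, and Star was lower at P21 than at P14. Lhcgr, in contrast, had 5.56 and 9.403 FPKM at P14 and 40.9 and 31.9 FPKM at 1 year, under both P60 libraries. Ccl2, the chemokine described below, followed another course, with 2.61 and 0.468 FPKM at P14 and 0.909 and 1.303 FPKM at 1 year, so that it was highest at P60. Insl3 had 8.01 and 9.43 FPKM at P14 and 6.43 and 6.305 FPKM at 1 year, and Inhbb had 70.1 and 47.7 FPKM at P14 and 114 and 98.7 FPKM at 1 year. The P21 libraries were the highest of all 22 for both. Cyp17a1 and Cyp19a1 were lower at 1 year, with 3.58 and 3.23 and 5.39 and 5.05 FPKM. These ages share libraries with the comparison of P60 and P21, and their values are given side by side without a test.

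**Figure D3:**
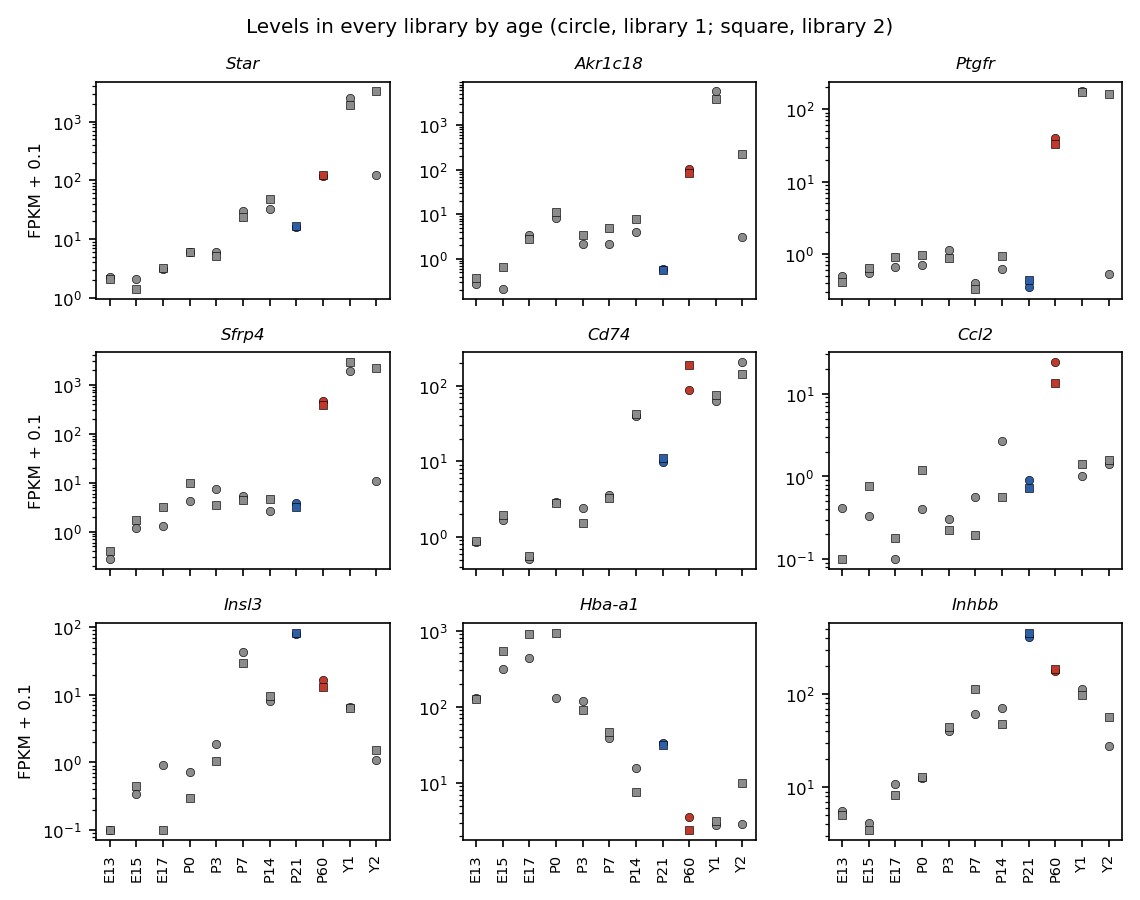
FPKM + 0.1 on a log axis for 9 genes in each of the 22 libraries, by age, with circles for library 1 and squares for library 2, P21 in blue, P60 in red and the other ages in gray. Akr1c18, Ptgfr, Star and Sfrp4 are higher at P60 than at P21 and higher still at 1 year, and the 2-year replicates lie far apart. Ccl2 peaks at P60, and Insl3 and Inhbb peak at P21.

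Genes of antigen presentation on MHC class II rose most uniformly. Of 10 tested genes of this pathway and of dendritic cells 7 rose, with a median of 1.29, and the count was 7 without any 1 of the 4 libraries as well. For all 10 both P60 libraries lay above both P21 libraries, against 29.2% of all genes tested. The summed level was 170.2 and 319 FPKM at P60, against 24.8 and 28.2 FPKM at P21. Cd74, the invariant chain that escorts class II molecules, rose to 88.8 and 189.9 FPKM at P60, against 9.604 and 10.96 FPKM at P21 (3.54 ± 0.26, limma, adjusted p = 1e-06). H2-Aa, a class II alpha chain, rose to 21.5 and 33.95 FPKM at P60, against 2.999 and 2.93 FPKM at P21 (2.82 ± 0.30, adjusted p = 2.04e-05). H2-Ab1, the matching beta chain, rose to 17.9 and 32.8 FPKM at P60, against 2.53 and 3.19 FPKM at P21 (2.71 ± 0.24, adjusted p = 4.63e-06). In each of these genes P60 library 2 was the higher of the P60 libraries. The P14 libraries had 40.3 and 42.2 FPKM of Cd74, above both P21 libraries.

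Macrophage markers split into those that rose and those that did not. Of 23 tested members 13 rose and 1 fell, with a median of 0.78. Lyz2, the macrophage and neutrophil lysozyme, rose to 386 and 586 FPKM at P60, against 105 and 94.6 FPKM at P21 (2.24 ± 0.40, limma, adjusted p = 0.00151), and 32.8% of its 31-base words occur in other genes. Gpnmb, a glycoprotein of lipid-laden phagocytes, rose to 19.6 and 30.5 FPKM at P60, against 5.79 and 5.25 FPKM at P21 (1.97 ± 0.35, adjusted p = 0.00145). Cd68, an endosomal protein of phagocytes, rose to 24.4 and 26.2 FPKM at P60, against 5.33 and 6.59 FPKM at P21 (1.92 ± 0.30, adjusted p = 0.000479). In contrast, the general macrophage markers Adgre1, the F4/80 antigen, and Csf1r, the receptor of the macrophage growth factor, did not pass. Adgre1 had 6.14 and 6.79 FPKM at P60, against 5.96 and 5.15 FPKM at P21 (adjusted p = 0.554). Csf1r had 8.18 and 10.96 FPKM at P60, against 8.35 and 7.29 FPKM at P21 (adjusted p = 0.457), with overlapping ages. Cx3cr1, the fractalkine receptor of resident macrophages, was the member that fell, to 1.85 and 1.67 FPKM at P60, against 3.24 and 3.02 FPKM at P21 (adjusted p = 0.00455). Without P60 library 2 the count of members higher was 7, and Cx3cr1 was not called.

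Lysosomal genes rose with the phagocyte markers, 8 of 16 tested, with 1 lower and a median of 0.47. Lgmn, the legumain protease that processes antigens and cathepsins, rose to 127 and 115 FPKM at P60, against 22.6 and 20.6 FPKM at P21 (2.43 ± 0.17, limma, adjusted p = 8.1e-07). Ctss, the cathepsin that degrades the invariant chain, rose to 62.04 and 106 FPKM at P60, against 27.5 and 21.9 FPKM at P21 (1.69 ± 0.30, adjusted p = 0.0015). Psap, the saposin precursor, rose to 596 and 667 FPKM at P60, against 208 and 208 FPKM at P21 (1.60 ± 0.08, adjusted p = 3.39e-08). Ctsk, a collagen-degrading cathepsin, went the other way, with 1.19 and 1.27 FPKM at P60, against 6.46 and 5.82 FPKM at P21 (-1.68 ± 0.38, adjusted p = 0.00871), and lost its call without any library but P21 library 2 (adjusted p up to 0.0634).

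Of 18 tested complement genes 9 rose and 1 fell, and the median was 0.67. C3, the central component, rose to 30.8 and 23.1 FPKM at P60, against 7.96 and 5.39 FPKM at P21 (1.87 ± 0.33, limma, adjusted p = 0.00146). C5ar1, the anaphylatoxin receptor of myeloid cells, rose to 3.78 and 3.36 FPKM at P60, against 0.629 and 0.949 FPKM at P21 (1.36 ± 0.17, adjusted p = 7.87e-05). Cfp, properdin, which stabilizes the alternative pathway, rose to 14.8 and 19.1 FPKM at P60, against 7.02 and 6.89 FPKM at P21 (1.17 ± 0.16, adjusted p = 0.000209). C1qa, a subunit of the recognition protein made by macrophages, rose to 62.8 and 81.5 FPKM at P60, against 38.4 and 33.2 FPKM at P21 (0.98 ± 0.20, adjusted p = 0.00468). In all 4 both P60 libraries lay above both P21 libraries, as in 29.2% of all genes tested. At P14 C3 had 27.05 and 26.92 FPKM, between its P60 libraries, so its rise followed a fall from P14 to P21. The P14 libraries of C5ar1, Cfp and C1qa lay under both P21 libraries instead. C1qa lost its call without P60 library 2 or P21 library 2 (adjusted p up to 0.0697), and the list then had 4 or 5 members higher.

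Chemokines and cytokines had the second-highest share of members that rose, 13 of 21 tested, with 1 lower and a median of 1.13. Ccl2 (chr11:82035571-82037453), which recruits monocytes, rose to 23.96 and 13.2 FPKM at P60, against 0.811 and 0.633 FPKM at P21 (3.46 ± 0.36, limma, adjusted p = 1.77e-05). Ccl7, its neighbour on the chromosome with similar receptors, rose to 31.8 and 15.1 FPKM at P60, against 1.71 and 1.01 FPKM at P21 (3.30 ± 0.37, adjusted p = 3.83e-05). Ccl6, a myeloid chemokine, rose to 27.8 and 25.5 FPKM at P60, against 1.85 and 2.19 FPKM at P21 (3.19 ± 0.16, adjusted p = 3.92e-08). P60 library 1 was the higher for Ccl2 and Ccl7, unlike the class II genes. Cxcl1, which attracts neutrophils, and Il1b, the inflammatory cytokine, also rose (1.61 ± 0.25 and 1.57 ± 0.21). Without P60 library 1 the count of members higher was 11.

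The acute-phase protein Saa3 (chr7:46711998-46715700), which fibroblasts and macrophages make, had the second-widest increase in the ranking that Sfrp4 headed. Saa3 had 124 and 79.8 FPKM at P60, against 1.12 and 0.126 FPKM at P21 (6.02 ± 0.85, limma, adjusted p = 0.00025). Its relative Saa2 had 12.99 and 13.2 FPKM at P60, against 0 and 0.3301 FPKM at P21 (3.61 ± 0.52, adjusted p = 0.000306), and 46.6% of its words are shared with other genes, so reads may have been divided between family members. S100a4, a calcium-binding protein of fibroblasts and leukocytes, had 173 and 133 FPKM at P60, against 2.36 and 1.61 FPKM at P21 (5.69 ± 0.30, adjusted p = 5.17e-08), with 58.1% of its words shared. All 3 were at 2.36 FPKM or under in both P21 libraries. They were named among the widest increases, a rule that required ages without overlap and at least 10 FPKM at the higher age.

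Lymphocyte markers appeared at low levels. Of 11 tested genes of T and NK cells 4 rose, with a median of 0.59. Cd3e, a chain of the T-cell receptor complex, had 1.55 and 1.53 FPKM at P60, against 0.0415 and 0.1402 FPKM at P21 (1.22 ± 0.20, limma, adjusted p = 0.000782). Il7r, the interleukin-7 receptor of lymphocytes, had 3.500 and 3.99 FPKM at P60, against 0.223 and 0.209 FPKM at P21 (1.96 ± 0.17, adjusted p = 3.39e-06). Of 7 tested genes of B and plasma cells 2 rose, with a median of 0.20. They were Igkc, the kappa light chain constant region, with 11.3 and 13.3 FPKM at P60, against 0.224 and 0.505 FPKM at P21 (3.29 ± 0.35, adjusted p = 2.31e-05), and Igha, the constant region of IgA, with 1.12 and 1.47 FPKM at P60, against 0.0397 and 0.157 FPKM at P21 (1.06 ± 0.23, adjusted p = 0.00575). The B-cell marker Ms4a1 stayed under the filter. Gzma, a granzyme of cytotoxic cells, had 3.15 and 2.25 FPKM at P60, against 0 and 0.841 FPKM at P21 (1.44 ± 0.31, adjusted p = 0.00545). It lost its call without P60 library 1 or P21 library 1, which left 2 T and NK cell genes, and Igha without P60 library 2 or P21 library 1 (adjusted p up to 0.0881 and 0.0625).

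Among granulocyte genes, 2 of 6 tested neutrophil markers rose, with a median of 1.21, and 1 of 6 mast cell markers fell, with a median of 0.04. Csf3r, the receptor of the neutrophil growth factor, had 4.24 and 2.98 FPKM at P60, against 0.5504 and 0.584 FPKM at P21 (1.54 ± 0.18, limma, adjusted p = 4.66e-05). S100a9, a calcium-binding protein of neutrophils, had 9.15 and 6.796 FPKM at P60, against 0.327 and 1.199 FPKM at P21 (2.38 ± 0.73, adjusted p = 0.0443), and lost its call without each of the 4 libraries (adjusted p = 0.101 to 0.238). The mast cell member that fell was Kit, which oocytes express as well. Ly6g, Elane and Mpo, which define neutrophils, stayed under the filter.

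**Figure D4:**
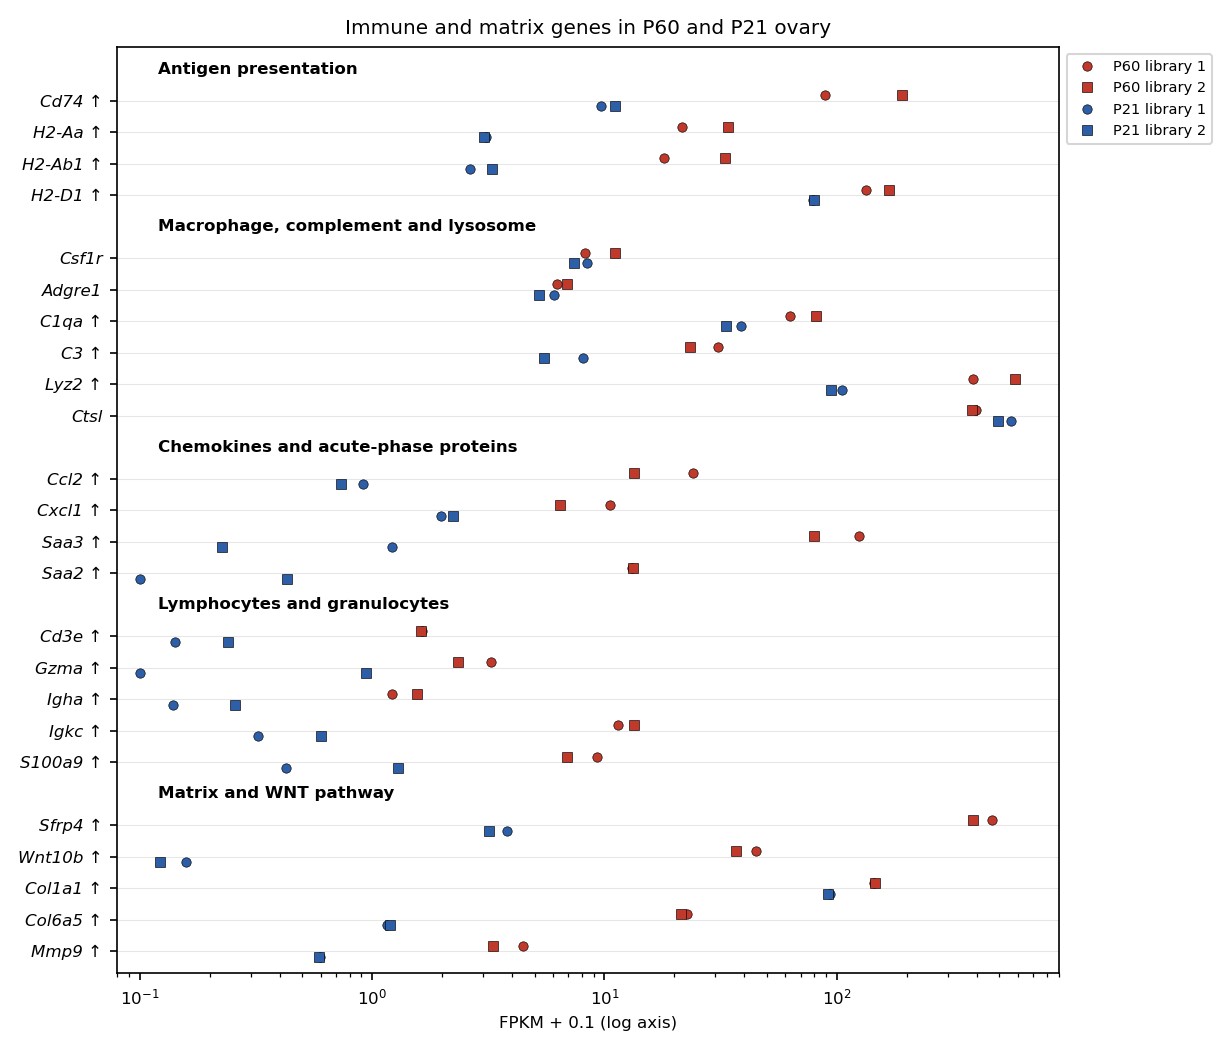
FPKM + 0.1 on a log axis for 24 immune and matrix genes in each P60 library (red) and each P21 library (blue), circles for library 1 and squares for library 2, with arrows as in the plot of reproductive genes. The class II, chemokine, acute-phase and lymphocyte genes lie further to the right at P60, whereas the P60 and P21 points of Csf1r overlap.

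MHC class I genes went in both directions, with 3 of 11 tested higher, 1 lower and a median of 0.23. H2-D1 rose to 133 and 168 FPKM at P60, against 79.2 and 79.8 FPKM at P21 (0.90 ± 0.24, limma, adjusted p = 0.0231), whereas H2-K1 fell to 16.6 and 14.8 FPKM at P60, against 32.3 and 29.6 FPKM at P21 (-0.94 ± 0.17, adjusted p = 0.00215). These class I heavy chains share 27.5% and 22.5% of their words with other genes, so both levels are uncertain. Tap2, a subunit of the peptide transporter, rose to 14.01 and 14.1 FPKM at P60, against 6.46 and 6.399 FPKM at P21 (1.02 ± 0.21, adjusted p = 0.00426). Interferon-response genes did not rise with the class II genes: 1 of 14 tested was higher and the median was -0.54. Gbp2, a guanylate-binding protein induced by interferon gamma, was that member, with 50.1 and 49.2 FPKM at P60, against 17.5 and 19.2 FPKM at P21 (1.39 ± 0.43, adjusted p = 0.046). In the fit to the 4 libraries alone 8 members were lower, and Ifit3, a type I interferon target, had 9.36 and 8.47 FPKM at P60, against 21.1 and 20.9 FPKM at P21 (adjusted p = 0.248 in the full fit, 0.00916 in the 4 libraries). Gbp2 lost its call without each of the 4 libraries (adjusted p = 0.154 to 0.186), and H2-D1 without all but P60 library 1 (adjusted p up to 0.19), which left 1 class I gene higher.

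Of 16 tested collagen genes 8 rose, with a median of 0.41. Col3a1, the collagen of reticular fibers, rose to 243 and 217 FPKM at P60, against 133 and 128 FPKM at P21 (0.81 ± 0.14, limma, adjusted p = 0.00154). Col12a1, a fibril-associated collagen, rose to 12.3 and 14.4 FPKM at P60, against 4.48 and 5.16 FPKM at P21 (1.30 ± 0.15, adjusted p = 4.99e-05). Col1a1, the main chain of type I collagen, rose to 144 and 146 FPKM at P60, against 93.5 and 91.6 FPKM at P21 (0.64 ± 0.17, adjusted p = 0.0201). All had both P60 libraries above both P21 libraries, as had 29.2% of all genes tested. The basement membrane chains Col4a1 and Col4a2, in contrast, differed by -0.04 ± 0.26 and 0.00 ± 0.26 and did not pass. Col6a5, a chain of type VI collagen outside the list, was among the 10 widest increases, with 22.6 and 21.3 FPKM at P60, against 1.06 and 1.09 FPKM at P21 (3.46 ± 0.19, adjusted p = 8.2e-08). At P14 Col3a1 had 187 and 243.3 FPKM, Col12a1 14.81 and 13.19 FPKM and Col1a1 141.1 and 183.3 FPKM. Each fell from P14 to P21 (-0.71, -1.36 and -0.79, limma, adjusted p = 0.00204, 1.3e-05 and 0.00273). Their rise to P60 thus followed a fall. The P14 libraries of Col6a5 and Col15a1 lay under both P60 libraries instead. Col1a1 lost its call without each of the 4 libraries (adjusted p = 0.0876 to 0.114), as did 2 others, and Col15a1 without P60 library 1 or P21 library 2 (adjusted p up to 0.0755). The count of collagens higher was then 4 or 5.

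Other matrix proteins changed singly, with 2 of 21 tested members higher, 3 lower and a median of 0.13. Tnc, the tenascin of remodelling tissue, rose to 70.6 and 53.8 FPKM at P60, against 7.14 and 6.78 FPKM at P21 (2.98 ± 0.34, limma, adjusted p = 4.33e-05). Fbln5, a fibulin needed for elastic fibers, fell to 3.31 and 3.73 FPKM at P60, against 7.76 and 7.55 FPKM at P21 (-0.94 ± 0.14, adjusted p = 0.000345), and so did Eln, elastin itself (-0.90 ± 0.17, adjusted p = 0.00224). Of 15 tested matrix proteases and inhibitors 7 rose and 1 fell, with a median of 0.51. Mmp19, a metalloprotease, rose to 13.98 and 12.6 FPKM at P60, against 4.04 and 4.39 FPKM at P21 (1.45 ± 0.16, adjusted p = 2.33e-05), and Plat, the tissue plasminogen activator, to 49.1 and 37.95 FPKM at P60, against 18.1 and 17.2 FPKM at P21 (1.25 ± 0.17, adjusted p = 0.000201). Mmp9, the gelatinase of leukocytes, had 4.35 and 3.21 FPKM at P60, against 0.498 and 0.494 FPKM at P21 (1.67 ± 0.52, adjusted p = 0.046), and like Fmod, a small proteoglycan that was lower, lost its call without each of the 4 libraries (adjusted p = 0.0621 to 0.221). Without any 1 library, 4 proteases and inhibitors remained higher.

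Blood vessel genes stayed nearly level, whereas lymphatic markers were lower on balance. Of 14 tested endothelial genes 1 fell, with a median of -0.11, and Pecam1, an adhesion molecule of endothelium, had 6.68 and 6.53 FPKM at P60, against 8.31 and 7.896 FPKM at P21 (limma, adjusted p = 0.366). Tek, the angiopoietin receptor, was the member that fell, to 4.92 and 4.97 FPKM at P60, against 8.21 and 8.52 FPKM at P21 (-0.65 ± 0.10, adjusted p = 0.000338). Of 14 tested angiogenic factors 2 rose and 2 fell, with a median of -0.03. Epas1, a hypoxia-inducible factor of endothelium, fell to 29.3 and 33.3 FPKM at P60, against 53.6 and 56.00 FPKM at P21 (-0.79 ± 0.15, adjusted p = 0.00269). Vegfa, the main vascular growth factor, had 7.897 and 7.09 FPKM at P60, against 11.3 and 10.6 FPKM at P21 and did not pass (adjusted p = 0.435, 0.00284 without the 2-year libraries). Apln, the endothelial peptide apelin, and Angptl4, an angiopoietin-like inhibitor of lipoprotein lipase, rose (1.10 ± 0.33 and 0.85 ± 0.19). Apln lost its call without each of the 4 libraries and Angptl4 without P60 library 1 or P21 library 2 (adjusted p up to 0.201 and 0.0713). Of 6 tested lymphatic markers 3 fell, with a median of -0.46, among them Pdpn, podoplanin, with 7.16 and 6.86 FPKM at P60, against 18.01 and 19.1 FPKM at P21 (-1.29 ± 0.16, adjusted p = 7.87e-05). Prox1, the factor that specifies lymphatic endothelium, had 1.25 and 1.44 FPKM at P60, against 2.93 and 2.43 FPKM at P21 (-0.65 ± 0.13, adjusted p = 0.00331). Reln, a secreted matrix glycoprotein and the other member, lost its call without each of the 4 libraries and Prox1 without P21 library 1 (adjusted p up to 0.24 and 0.0508). Smooth muscle and pericyte genes were level, with 1 of 13 tested lower, the pericyte proteoglycan Cspg4 (-0.53 ± 0.11, adjusted p = 0.0041), and a median of 0.12.

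Growth factor genes changed singly. In the IGF pathway 1 of 13 tested members rose and 2 fell, with a median that rounds to 0. Igf1, the growth factor that amplifies gonadotropin action in granulosa cells, fell to 14.03 and 12.7 FPKM at P60, against 22.8 and 22.4 FPKM at P21 (-0.72 ± 0.17, limma, adjusted p = 0.0121). Pappa, the protease that frees IGF from its binding proteins, rose to 2.58 and 3.35 FPKM at P60, against 0.362 and 0.365 FPKM at P21 (1.53 ± 0.36, adjusted p = 0.00978). Stc1, a stanniocalcin that inhibits this protease, fell to 14.9 and 16.4 FPKM at P60, against 44.4 and 43.95 FPKM at P21 (-1.44 ± 0.42, adjusted p = 0.0364). Stc1 lost its call without each of the 4 libraries, Igf1 without all but P60 library 1 and Pappa without all but P60 library 1 (adjusted p up to 0.163, 0.101 and 0.0868). Imprinted growth genes gave 3 of 13 tested members lower, with a median of -0.15. Mest, a paternally expressed hydrolase-like protein, fell to 2.43 and 1.97 FPKM at P60, against 8.19 and 9.28 FPKM at P21 (-1.61 ± 0.13, adjusted p = 2.04e-06). H19, a noncoding RNA, and Plagl1, a zinc finger factor, were the other members lower (-0.91 ± 0.25 and -0.71 ± 0.22). H19 lost its call without all but P21 library 1 and Plagl1 without each of the 4 libraries (adjusted p up to 0.245 and 0.266).

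Stress genes moved upward. Of 21 tested antioxidant and detoxifying genes 6 rose, with a median of 0.52, and of 16 tested immediate early and heat shock genes 8 rose, with a median of 0.48. Gsta4, a glutathione transferase that clears lipid peroxidation products, rose to 118 and 130.1 FPKM at P60, against 75.5 and 65.7 FPKM at P21 (0.80 ± 0.13, limma, adjusted p = 0.000883). Gpx3, the secreted glutathione peroxidase, had 149 and 285 FPKM at P60, against 92.3 and 42.7 FPKM at P21, with a wide spread at both ages, and lost its call without P60 library 2 or P21 library 2 (adjusted p up to 0.114). Hmox1, the heme oxygenase of macrophages, rose to 27.9 and 27.7 FPKM at P60, against 14.2 and 14.4 FPKM at P21 (0.91 ± 0.27, adjusted p = 0.0357), a call lost without each of the 4 libraries (adjusted p = 0.144 to 0.146). Without P60 library 2 or P21 library 2, 1 of the antioxidant genes remained called. Atf3, a stress-induced transcription factor, rose to 7.05 and 6.56 FPKM at P60, against 1.95 and 1.81 FPKM at P21 (1.44 ± 0.30, adjusted p = 0.00432). Junb rose to 21.6 and 15.9 FPKM at P60, against 7.09 and 7.62 FPKM at P21 (1.23 ± 0.15, adjusted p = 5.6e-05), whereas Fos and Egr1 differed by -0.31 ± 0.56 and 0.03 ± 0.35 and did not pass. The inducible chaperone gene Hspa1a rose as well (0.94 ± 0.17, adjusted p = 0.00179), with 65.4% of its words shared with other genes. Without P21 library 1 or P21 library 2, 5 members of the immediate early and heat shock list were higher.

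Several of the widest decreases lay outside the gene lists. Clec3b, tetranectin, a plasminogen-binding protein of connective tissue, fell to 0.9097 and 0.777 FPKM at P60, against 22.9 and 16.7 FPKM at P21 (-3.48 ± 0.50, limma, adjusted p = 0.000286). Tmem100, a membrane protein induced by bone morphogenetic proteins in endothelium, fell to 6.42 and 4.79 FPKM at P60, against 39.1 and 34.3 FPKM at P21 (-2.52 ± 0.31, adjusted p = 8.05e-05). Upk1b, a uroplakin of the surface mesothelium, fell to 1.56 and 1.12 FPKM at P60, against 9.797 and 11.7 FPKM at P21 (-2.33 ± 0.26, adjusted p = 3.54e-05). It was the 1 member called among 14 surface epithelium genes tested, whose median was -0.07, and Krt18, a keratin of that layer, had 9.91 and 10.1 FPKM at P60, against 9.49 and 11.1 FPKM at P21. Olfr1033, annotated as an olfactory receptor, was listed at 0 in both P60 libraries and had 14.7 and 10.5 FPKM at P21. It was also at 0 in both libraries at embryonic day 13, embryonic day 15, postnatal day 3 and 1 year. At P14 it had 5.79 and 6.91 FPKM, and at 2 years 12.67 and 10.65 FPKM, so its values switch between ages.

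The widest decrease, once clone, pseudogene and identifier names were left out, was that of Rpl26, whose values switch between ages. Rpl26, a protein of the large ribosomal subunit, had 0.897 and 0.732 FPKM at P60, against 52.8 and 66.8 FPKM at P21 (-5.06 ± 0.25, limma, adjusted p = 3.39e-08). It was at 2.06 FPKM or under at embryonic day 15, postnatal day 3, P60 and 1 year and at 33.5 FPKM or more at the other ages. Of its 31-base words 55.0% occur in other genes. Rpl34, of the same subunit, had 2.67 and 2.57 FPKM at P60, against 17.3 and 16.7 FPKM at P21 (-2.31 ± 0.23, adjusted p = 1.32e-05). Rps18 and Rpl35a, taken up after their values were seen, also had ages that did not overlap, with 3.56 and 3.204 FPKM at P60, against 19.5 and 18.7 FPKM at P21 for the first. H2-T22, a nonclassical class I gene, had 1.12 and 1.18 FPKM at P60, against 14.7 and 12.8 FPKM at P21 (-2.77 ± 0.22, adjusted p = 1.86e-06), with 51.8% of its words shared. Rpl34, Rps18, Rpl35a, H2-T22 and Olfr1033 were, like Rpl26, low at P60 and 1 year and higher at P21, P14 and 2 years. Rpl34 had 11.63 and 10.45 FPKM at P14, 2.366 and 2.516 FPKM at 1 year, and 16.74 and 10.8 FPKM at 2 years. H2-T22 had 5.898 and 4.856 FPKM at P14, 2.019 and 1.032 FPKM at 1 year, and 12.29 and 15.49 FPKM at 2 years. Whether this shared pattern followed age or read assignment was not tested. For genes with near-identical copies these levels depend on how reads were assigned and are uncertain.

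Among 9 tested red blood cell genes 2 globin genes fell. Hba-a1, an alpha globin gene, had 3.42 and 2.304 FPKM at P60, against 33.2 and 31.1 FPKM at P21 (-3.11 ± 0.69, limma, adjusted p = 0.00732), and Hbb-bt, a beta globin gene, had 2.31 and 2.11 FPKM at P60, against 21.4 and 20.5 FPKM at P21 (-2.77 ± 0.69, adjusted p = 0.0154). They share 71.4% and 59.4% of their words with other genes, so the split between globin copies is uncertain, and the summed level of the 9 red cell genes was 10.5 and 8.84 FPKM at P60, against 80.4 and 75.2 FPKM at P21. The median of the list was -0.18. Hbb-bt lost its call without each of the 4 libraries and Hba-a1 without P60 library 2 or P21 library 1 (adjusted p up to 0.0879 and 0.0651). Of 9 tested nerve and Schwann cell genes 2 rose, S100b (2.67 ± 0.37, adjusted p = 0.000218) and Mbp (1.07 ± 0.16, adjusted p = 0.000392), with a median of 0.03, and the summed level of the list was 29.4 and 30.6 FPKM at P60, against 16.4 and 16.3 FPKM at P21.

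Fat markers differed within their list. Plin4, a lipid droplet protein, rose to 17.1 and 15.6 FPKM at P60, against 1.67 and 1.31 FPKM at P21 (2.80 ± 0.61, limma, adjusted p = 0.00646), a call lost without P21 library 2 (adjusted p = 0.0549). The markers that define adipocytes, Adipoq and Cfd, were listed at 0 in both P60 libraries and at 3.31 and 0 and 13.03 and 0.218 FPKM at P21, so 1 P21 library carried them. The median of the 11 fat genes tested was -0.35, and their summed level was 65.9 and 70.1 FPKM at P60, against 71.6 and 46.7 FPKM at P21. Of 9 tested oviduct genes 1 rose, the cilium gene Rsph1 (0.85 ± 0.16, adjusted p = 0.00224), with a median of -0.15, and their summed level was 4.18 and 4.41 FPKM at P60, against 4.01 and 4.52 FPKM at P21. Of 3 tested adrenal genes 1 rose, Mrap, the accessory protein of the corticotropin receptor, with 28.7 and 25.3 FPKM at P60, against 5.92 and 4.94 FPKM at P21 (2.12 ± 0.56, adjusted p = 0.0212), a call lost without each of the 4 libraries (adjusted p = 0.0801 to 0.128). Cyp11b2, which defines the adrenal cortex, was listed at 0 in all 4 libraries, and Cyp11b1 and Cyp21a1 stayed under 0.2 FPKM in each. None of 3 tested skeletal muscle genes passed, none had an unadjusted limma p under 0.05, and their median was 0.03.

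**Figure D5:**
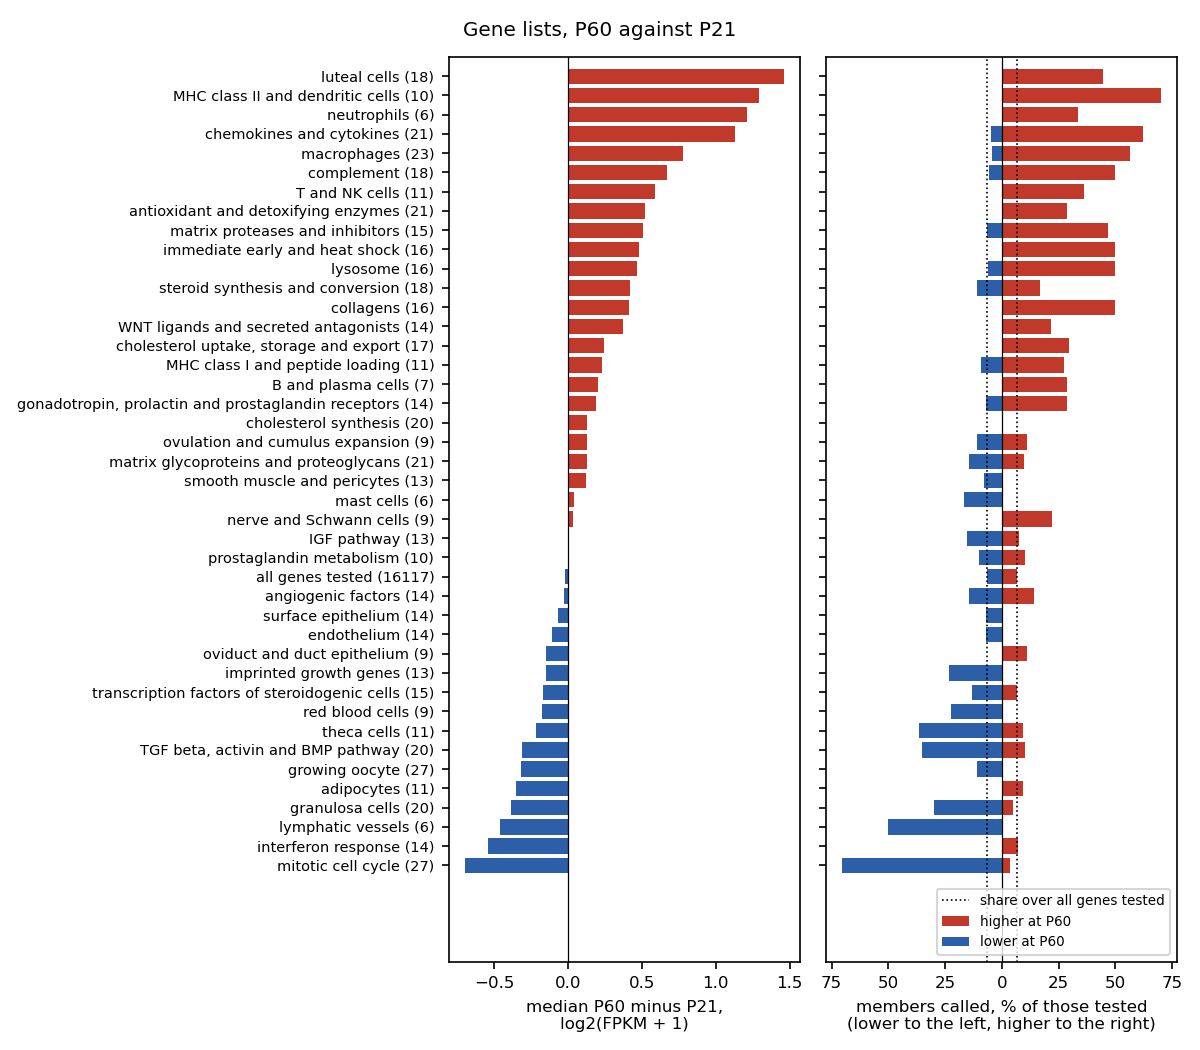
Each gene list with at least 5 tested members, with the number tested in parentheses, ordered by the median P60 minus P21 difference on the log2(FPKM + 1) scale (left), and the share of its tested members called higher (red, to the right) or lower (blue, to the left) at P60 (right). Dotted lines mark the shares over all genes tested, 6.81% and 6.70%. Luteal and class II genes head the order, and cell cycle genes stand at its foot.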

How the data were processed

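Whole ovaries of CD1 mice were sequenced at 11 ages, with 2 libraries for each age. The deposited table holds FPKM for 34745 genes, which the authors made with HISAT2, StringTie and edgeR on mm10, per the submitters' processing notes, whereas the series' design text names TopHat. Tool versions, annotation and strand handling: not given in the sources used here. Library depth was estimated from the steps between FPKM values under 0.2, of which 94.6 to 97.1% per library came out as whole reads within a tolerance of 0.02.

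Groups were taken from the age labels. Genes at 1 FPKM or more in at least 2 libraries were kept, and a linear model with moderated variances that follow a trend with level (limma 3.58.1 under R 4.3.3) was fitted to log2(FPKM + 1) of all 22 libraries with 1 level per age, leaving 11 residual degrees of freedom. P60 minus P21 was called at a Benjamini-Hochberg adjusted p of 0.05 over all 16117 genes, after a test on simulated data. A permutation test of 2 against 2 libraries cannot go below an exact p of 0.333, so none was used. The replicate numbers did not pair the libraries.

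Named were the 10 widest increases and 10 widest decreases past the threshold, without overlap between ages and with at least 10 FPKM at the higher age, up to 3 members called in each of 43 gene lists, and a set of genes of known role. The rankings of widest changes left out genes with clone, pseudogene or identifier names. Other list members in the text were named after their values were seen. The lists and members were chosen with earlier results of these data known. The motif AGGTCA and the fit without the 2-year libraries were chosen after seeing the data. The share of a gene's 31-base words found in other genes was taken from GENCODE transcripts, and promoters from RefSeq.

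Alternatives were a pseudocount of 0.1, other filters and scalings, fewer ages, a replicate block, no trend and each library left out. Some genes of these lists are not reported here.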

Additional observations from a re-analysis of the deposited data

How the results depend on the processing

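No named gene that was called, in the main fit or in an alternative, changed direction. The balance of some counts did change. Matrix glycoproteins and proteoglycans had 2 members higher and 3 lower, but 7 higher and 3 lower in the 4 libraries alone. The IGF pathway had 1 higher and 2 lower, and 3 higher and 2 lower in the 4 libraries alone. With quantile normalization 1112 genes were higher and 1207 lower, against 1098 and 1080 in the main fit. Without any 1 of the 4 libraries, limma called 654 to 694 genes higher and 509 to 585 lower at P60, and of 110 named genes called, 42 lost their call in at least 1 of these fits. The lone library of an age is then assumed to vary like the other ages. The fit to the 4 libraries alone gave 1436 higher and 1423 lower, and that without the 2-year libraries 1647 higher and 1721 lower. Of the named genes, 8 gained a call in the 4 libraries alone and 8 lost it. Those that lost it were Apoe, Dazl, Ptx3, Gzma, Inha, Reln, H19 and Gpx3 (limma, adjusted p = 0.0543 to 0.124). With a pseudocount of 0.1, 622 genes were higher and 331 lower by at least 1 on the log2 scale. The other filters and scalings, and the fits without the trend or to postnatal libraries alone, kept the counts of genes higher and lower within 1.5 times. P60 and P21 libraries of the same number did not deviate together (correlation of deviations -0.003), so the numbers give no pairing. With the replicate number as a block, the fit to all libraries called 1075 higher and 1026 lower, and the fit to the 4 libraries alone, with 1 residual degree of freedom, called 2 higher, both by at least 1 on the log2 scale, and 0 lower at that size or any other, against 2461 higher and 2713 lower at an unadjusted p under 0.05. The cause of these moves was not tested. Depth, near 30 reads for 1 FPKM of a transcript of 2 kb, limits values under about 0.1 FPKM.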

Other observations

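Further genes outside the lists moved with those described, and they were chosen after their values were seen. Lgals3, the galectin of phagocytes, had 32.6 and 30.7 FPKM at P60, against 4.57 and 4.12 FPKM at P21 (2.61 ± 0.30, limma, adjusted p = 4.33e-05). Gm2a, the lysosomal activator of ganglioside breakdown, had 121 and 118 FPKM at P60, against 23.6 and 23.6 FPKM at P21 (2.29 ± 0.42, adjusted p = 0.00182). Adh1, an alcohol dehydrogenase that also oxidizes retinol, had 80.9 and 98.8 FPKM at P60, against 12.2 and 9.44 FPKM at P21 (2.94 ± 0.41, adjusted p = 0.000248). Fzd1, a WNT receptor, had 43.9 and 29.6 FPKM at P60, against 5.82 and 5.81 FPKM at P21 (2.44 ± 0.21, adjusted p = 3.27e-06), and Penk, the precursor of enkephalin peptides, had 40.9 and 29.9 FPKM at P60, against 6.97 and 5.94 FPKM at P21 (2.27 ± 0.27, adjusted p = 5.94e-05). In all 5 genes both P60 libraries lay above both P21 libraries, as in 29.2% of all genes tested. Because the 5 were chosen by their values, this separation adds no support.

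On the lower side, Me2, the mitochondrial malic enzyme, had 37.1 and 37.9 FPKM at P60, against 106 and 107 FPKM at P21 (-1.49 ± 0.12, limma, adjusted p = 2.42e-06). Car14, a membrane carbonic anhydrase, had 21.9 and 22.9 FPKM at P60, against 55.8 and 53.1 FPKM at P21 (-1.24 ± 0.11, adjusted p = 4.12e-06). Thbs4, a thrombospondin of the matrix, had 44.4 and 49.1 FPKM at P60, against 114 and 106 FPKM at P21 (-1.22 ± 0.16, adjusted p = 0.000123). Derl3, which helps to clear misfolded proteins from the endoplasmic reticulum, had 28.2 and 28.9 FPKM at P60, against 72.2 and 70.6 FPKM at P21 (-1.29 ± 0.25, adjusted p = 0.00258). One mitochondrial gene, mt-Nd4l, had 2957 and 2906 FPKM at P60, against 0.201 and 2788 FPKM at P21, so a single P21 library was near 0. Of its 31-base words 98.9% occur in other genes, and its difference of 5.66 ± 2.94 was not called (adjusted p = 0.253).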
